A study of Mus musculus with 55 samples.

Results

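The extracellular matrix genes described here are 39 genes that encode collagens, laminins and nidogens, elastic fibre proteins and the glycoproteins and small proteoglycans bound to them. Members were taken by name. Every probe set of the Affymetrix mouse whole-genome array whose annotation carries 1 member symbol and no other symbol was used, and a gene is given by its brightest probe set, the one with the highest mean over 52 arrays. This found 38 of 39 genes on 80 probe sets, out of 18193 genes and 45037 probe sets. Fbn1 was not analysed here. Of the 38 genes, 9 had 1 probe set and 29 had 2 to 4. The mean of the brightest probe set was over log2 5 for 36 genes, and it was 4.89 for Col15a1 and 4.47 for Nid2.

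Fibrillar collagens form the cable-like fibres that bear tension in the lung, and they are made mainly by fibroblasts. Type IV collagen, laminins, nidogens and perlecan assemble into the basement membrane, the thin sheet beneath epithelium and around capillaries that the alveolar wall shares between air and blood. Elastin laid down on microfibrils gives the lung its recoil, and the lysyl oxidases Lox and Loxl1 join the chains of collagen and elastin into a stable mesh. Glucocorticoids such as dexamethasone act through a nuclear receptor that raises some genes and lowers others.

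Lungs of male C57BL/6 mice were used, 1 array per mouse. The mice were 6 weeks old and first spent 2 weeks on 1 of 2 diets, AIN-76A or a diet labelled LRD. The feeding set lasted 5 weeks. On AIN-76A it held control mice without As (5 mice) and mice that took in As as sodium arsenite, at 10 ppb in food (5), 10 ppb in drinking water (4) or 100 ppb in drinking water (3), and on LRD the same groups with 4, 5, 4 and 3 mice. A further set, all on AIN-76A and without As in food or water, was injected into the peritoneum 8 h before the lungs were taken, with saline (5 mice), dexamethasone at 1 mg/kg (5), sodium arsenite at 1 mg/kg (4) or dexamethasone and arsenite together, 1 mg/kg each (5). Replicates carry letters A to F and are separate mice. The 3 arrays that stood apart were left out, which leaves 52 of 55. These were AIN-76A 100 ppb water replicate B, LRD 10 ppb water replicate C and arsenite injection replicate E. All values are on the log2 scale of the deposited arrays, differences are log2 differences of group means, and a member is called where limma gives an adjusted p (Benjamini-Hochberg over 45037 probe sets) under 0.05. Array signals of different probes are not comparable, so levels are compared between mice only.

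The libraries shared 1 scale. Their SDs of log2 values ran from 2.294 to 2.418 in the 52 arrays, against 1.89, 2.227 and 1.172 in those left out. The 3' minus 5' signal of Actb and Gapdh, which rises with RNA degradation, ran from 0.312 to 1.27 in the 52 arrays, with a middle of 0.7155. It was highest in AIN-76A 10 ppb water replicate E. That array also had the lowest correlation with its group, 0.9668, against a middle of 0.9938. The sampled tissue showed lung markers throughout, with alveolar type II markers at a mean level between 11.90 and 12.93 in each mouse and alveolar type I markers between 11.06 and 11.77. Some mice carried RNA of neighbouring tissue. In the AIN-76A 10 ppb water group, replicate A had a mean fat marker level of 10.08 and a skeletal muscle level of 10.70, and replicate E had a thymus level of 10.22. Saline replicate E had a thymus level of 8.30 and a fat level of 8.79. High skeletal muscle levels were also found in LRD 10 ppb food replicate B (11.06, the highest of all mice), AIN-76A control replicate E (8.51) and dexamethasone replicate A (7.60), and 4.93 or less in the others. All 7 cartilage markers had a mean under log2 5. Their level reached 5.51 in a mouse of the AIN-76A 10 ppb water group, against a mean of 3.52 over 52 mice. Heart muscle levels ran from 7.24 in an arsenite-injected mouse to 12.68 in an LRD control mouse. Fat levels reached 7.85 after dexamethasone. Because whole lung was measured, fewer cells of a type and less RNA per cell cannot be told apart.

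Averaged over the 38 genes, the matrix genes differed little between the 12 groups. The group means of this average lay between 8.57 (AIN-76A, 10 ppb in water) and 8.84 (AIN-76A, 10 ppb in food). The SD over mice was 0.38 in the former group, where the 4 mice read 8.81, 8.82, 8.63 and 8.01, and 0.30 after dexamethasone and arsenite. In the other 10 groups it was 0.04 to 0.26. The average takes in genes that were called in opposite directions, all of them in comparisons with dexamethasone.

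**Figure D1:**
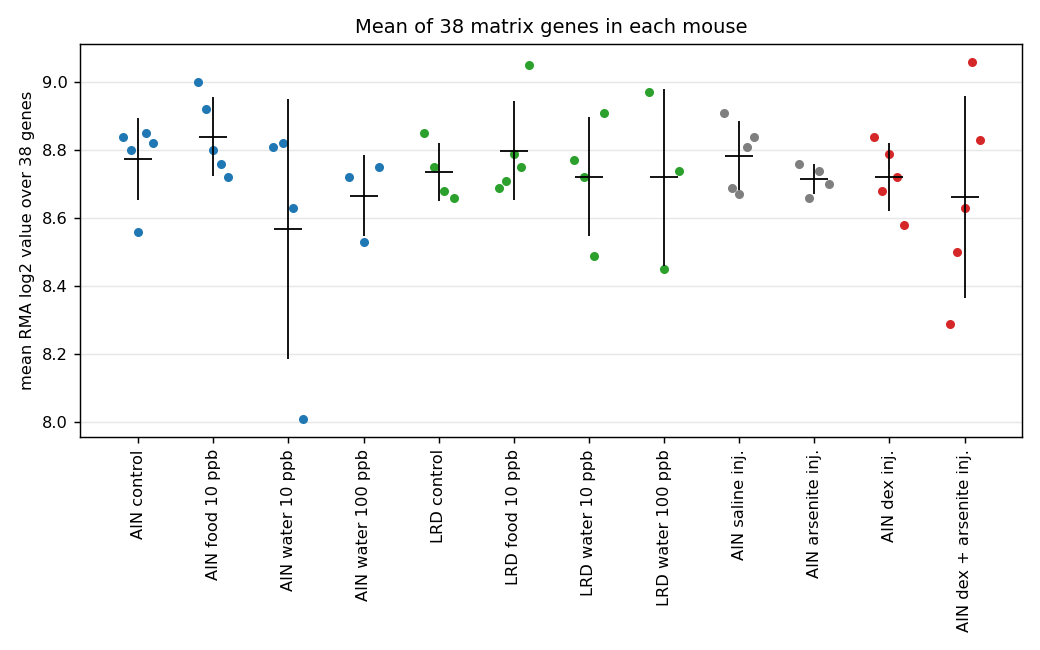
Mean log2 level of the 38 matrix genes (y axis) for each of 52 mice in 12 groups (x axis), with points for mice and bars for the group mean ± SD. Group means lie between 8.57 and 8.84, and the lowest mouse, at 8.01, is replicate E of the AIN-76A 10 ppb water group.

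Dexamethasone was the treatment under which matrix genes were called. In all 10 mice received it and 9 injected mice did not. The comparison of these sets averages dexamethasone against saline and dexamethasone with arsenite against arsenite, and it was chosen after the data had been seen. In it 4 of 38 genes rose (Lox, Nid2, Col4a1 and Col4a2) and 5 fell (Tnc, Col6a3, Col3a1, Loxl1 and Fbln5). Over all probe sets 1.54% were called higher and 2.43% lower. Among the 19391 probe sets with a mean over log2 5 the shares were 2.90% and 4.73%, and among the members 10.5% and 13.2%. The median change of the members was -0.01, against 0.00 over those bright probe sets, with 17 of 38 above 0. Lox, Tnc, Col3a1, Col6a3, Col4a1 and Loxl1 kept their calls when any 1 of the 19 mice was left out.

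Promoters were read from a set of RefSeq mouse promoters, build GRCm38.p6, that held 25 of the 39 genes and 6 of the 9 that were called. Lox, Loxl1 and Nid2 were not in this set, so their promoters were not searched. The 250 bases before the start are shown for the 3 collagen and matrix genes that fell farthest and for Fbln5, so that the upstream regions of genes that fell together can be compared. Capitals mark matches on either strand to 4 motifs: AGAACA, part of the glucocorticoid response element, the TATA box TATAAA, the CCAAT box CCAAT and the Sp1 box GGGCGG.
Col3a1, chr1:45311288-45311537, plus strand: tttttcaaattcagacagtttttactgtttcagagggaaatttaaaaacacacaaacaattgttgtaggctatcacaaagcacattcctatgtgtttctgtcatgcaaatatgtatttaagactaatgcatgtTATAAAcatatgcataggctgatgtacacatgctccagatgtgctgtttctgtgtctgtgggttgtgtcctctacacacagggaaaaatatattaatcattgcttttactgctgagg
Col6a3, chr1:90843972-90844221, minus strand: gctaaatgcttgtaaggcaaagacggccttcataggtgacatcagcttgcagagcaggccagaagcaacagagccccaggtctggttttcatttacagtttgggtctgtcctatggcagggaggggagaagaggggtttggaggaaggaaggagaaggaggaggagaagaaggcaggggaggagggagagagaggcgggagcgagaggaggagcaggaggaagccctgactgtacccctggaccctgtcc
Fbln5, chr12:101819120-101819369, minus strand: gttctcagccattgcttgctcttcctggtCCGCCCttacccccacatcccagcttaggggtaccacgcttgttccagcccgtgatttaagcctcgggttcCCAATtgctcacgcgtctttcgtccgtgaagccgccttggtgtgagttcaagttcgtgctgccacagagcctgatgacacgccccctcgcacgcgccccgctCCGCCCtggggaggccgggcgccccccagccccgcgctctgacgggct
Tnc, chr4:64047016-64047265, minus strand: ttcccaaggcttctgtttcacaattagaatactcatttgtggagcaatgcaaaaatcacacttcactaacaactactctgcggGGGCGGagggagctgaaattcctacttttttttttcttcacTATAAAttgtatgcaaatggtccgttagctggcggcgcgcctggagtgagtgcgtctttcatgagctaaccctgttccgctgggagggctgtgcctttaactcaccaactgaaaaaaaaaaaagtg
Positions are counted back from the start. Col3a1 held TATAAA at -117, and Tnc held TATAAA at -126 and GGGCGG at -167. Fbln5 held CCAAT at -150, and GGGCGG on the other strand at -221 and -48. Col6a3 held no match in this window. Across 32851 promoters of the same length AGAACA occurred in 16.1%, TATAAA in 12.4%, CCAAT in 33.8% and GGGCGG in 32.7%. AGAACA was found in 4 of the 25 members (Bgn, Fbln1, Lama2 and Sparc), none of them called. TATAAA was found in 2 members, CCAAT in 7 and GGGCGG in 15, among them Fbn1, whose expression was not analysed. A gene was counted if any of its promoters held a match, while the shares above are of single promoters. Counts and shares are therefore not on the same measure. Tnc and Fbln5 each have 2 starts in the set, and the upstream one is shown. A match is a description of letters only.

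Lox, which encodes the enzyme that starts the cross-links of collagen and elastin, showed the largest rise. It read 8.64, 9.23, 8.62, 8.54 and 8.64 in saline mice B to F, and 9.91, 10.24, 9.63, 10.54 and 10.13 after dexamethasone. After arsenite alone it read 10.48, 8.28, 9.31 and 8.96, and after both agents 10.73, 10.30, 10.00, 10.57 and 10.28. Every mouse given dexamethasone lay above every saline mouse, while arsenite replicate A lay within the range of the dexamethasone mice. The pooled difference was 1.24 (SE 0.23, 2.36-fold, adjusted p from limma 0.000298). Against saline alone the rise was 1.36 (SE 0.31, 2.57-fold, adjusted p from limma 0.0145), and with arsenite present it was 1.12 (SE 0.33) with an adjusted p of 0.0792, not a call. The call against saline was lost without saline replicate F (adjusted p from limma 0.0503) and without dexamethasone replicate E (0.0739). A further probe set of Lox gave 1.44 in the pooled comparison (adjusted p from limma 4.9e-05), and a dim one with a mean of 2.94 gave 0.17.

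Loxl1, the relative of Lox that is tied to elastic fibres, moved the other way. In saline mice it read 10.28, 10.04, 9.71, 10.03 and 10.46, and after arsenite 9.83, 9.93, 9.82 and 9.92. After dexamethasone it read 9.47, 9.27, 9.73, 8.99 and 9.30, and after both agents 9.17, 9.13, 9.52, 9.89 and 9.54. Its levels overlapped between the sets in the highest mouse of each dexamethasone group. The pooled difference was -0.59 (SE 0.15, adjusted p from limma 0.0145), a 1.50-fold fall. A dimmer probe set gave -0.63 (adjusted p from limma 0.000131). In dexamethasone against saline the difference was -0.75 with an adjusted p of 0.0632 from limma.

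Tnc encodes tenascin C, a glycoprotein of developing and injured tissue. Saline mice read 5.08, 4.96, 5.75, 5.96 and 5.02, and arsenite mice 4.91, 5.42, 5.37 and 5.16. Dexamethasone mice read 4.07, 4.57, 4.49, 4.37 and 4.54, and those given both agents 3.84, 3.73, 4.25, 4.37 and 4.44. It was the only member for which the 10 mice with dexamethasone and the 9 without did not overlap, which held for 0.349% of all probe sets. The pooled difference was -1.02 (SE 0.20, adjusted p from limma 0.000687). The levels after dexamethasone lie near the median of all probe sets, which was 4.245 to 4.369 per array, so no fold is given for Tnc.

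**Figure D2:**
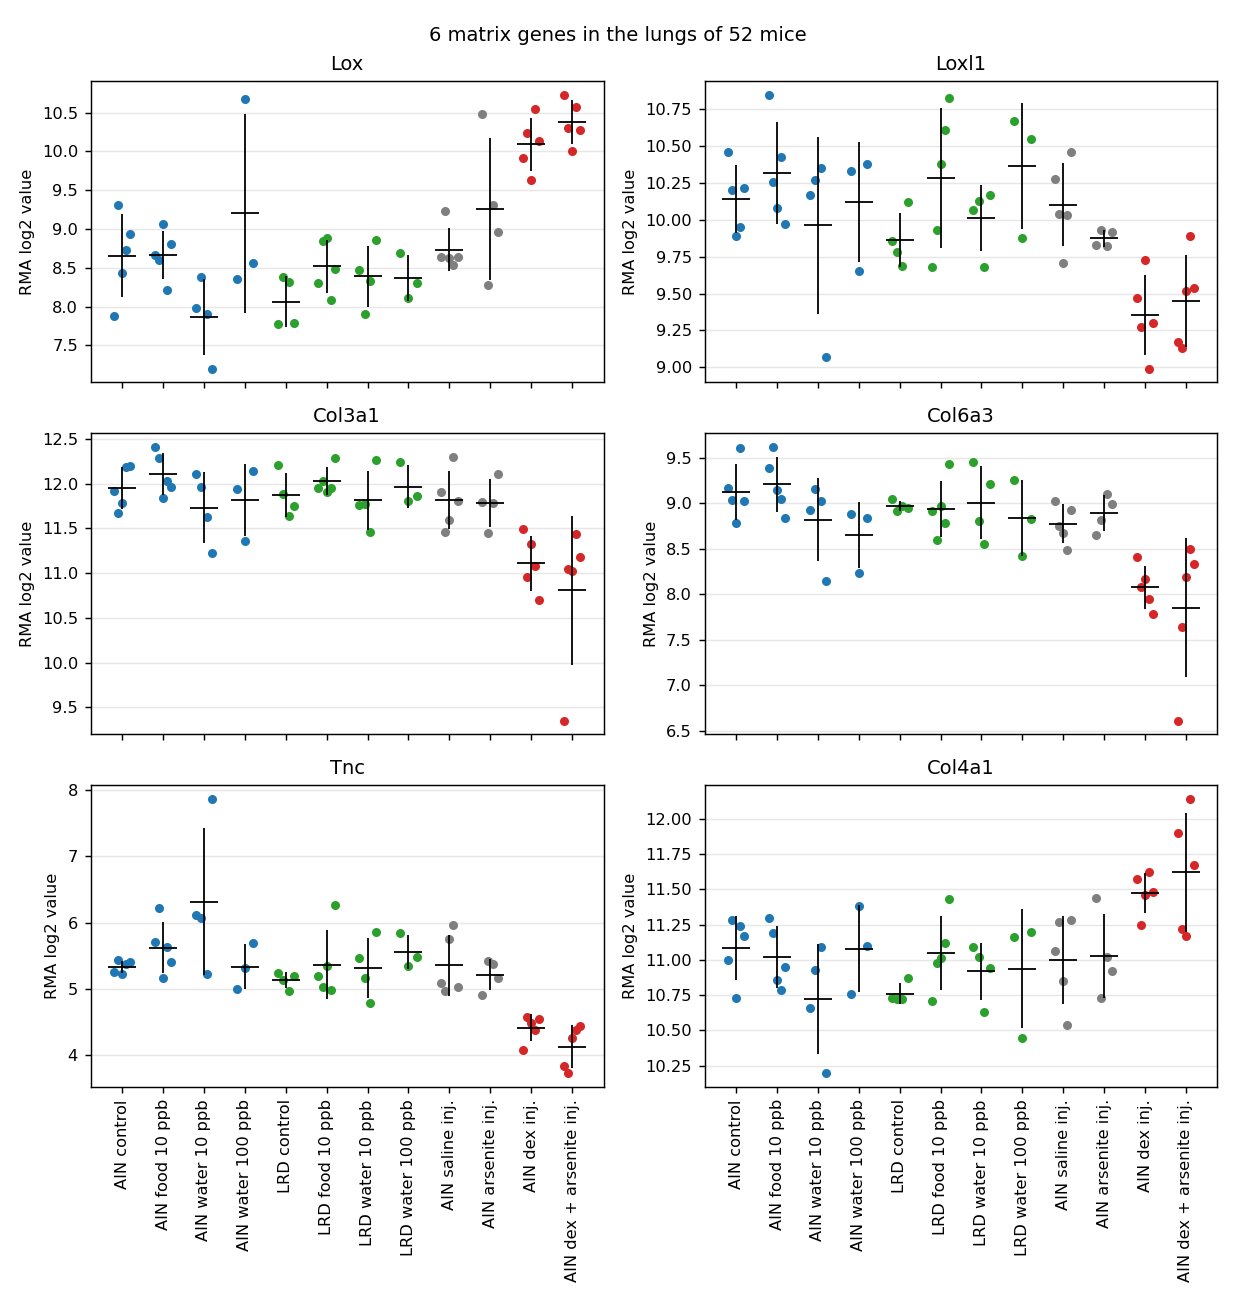
Log2 levels (y axes) of Lox, Loxl1, Col3a1, Col6a3, Tnc and Col4a1 in 52 mice by group (x axes), with points for mice and bars for mean ± SD. Lox is highest after dexamethasone and arsenite together, with a mean of 10.38, and Tnc, Col3a1 and Col6a3 are lowest there, with means of 4.13, 10.81 and 7.85.

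Col3a1, the chain of type III collagen, read 11.91, 11.46, 11.59, 12.30 and 11.81 in saline mice. Arsenite mice read 11.79, 11.45, 11.78 and 12.11. Dexamethasone mice read 11.49, 10.96, 11.32, 11.08 and 10.70, and those given both agents 9.35, 11.05, 11.02, 11.44 and 11.18. Only dexamethasone replicate A reached the range of the mice without dexamethasone. The pooled difference was -0.84 (SE 0.17, 1.79-fold, adjusted p from limma 0.000913). Its second probe set gave -0.97 (adjusted p from limma 0.0126).

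Col6a3 encodes a chain of type VI collagen, which forms beaded filaments around cells. It read 9.03, 8.75, 8.67, 8.49 and 8.93 after saline, and 8.65, 8.82, 9.10 and 8.99 after arsenite. After dexamethasone it read 8.41, 8.08, 8.17, 7.95 and 7.78, and after both agents 6.61, 7.64, 8.19, 8.50 and 8.33. A mouse given both agents (8.50) lay above the lowest saline mouse, and the others lay below all mice without dexamethasone. The difference was -0.86 (SE 0.17, 1.82-fold, adjusted p from limma 0.000628). Replicate A of the mice given both agents was the lowest for Col3a1 and Col6a3. Without it the pooled differences were -0.66 and -0.71, with adjusted p from limma of 0.000779 and 0.00107.

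Fbln5 encodes fibulin 5, which links elastin to cells and microfibrils. Saline and arsenite mice read 9.68 to 10.12, dexamethasone mice 9.42 to 9.72 and mice given both agents 8.90 to 9.99, so the sets overlapped. The difference was -0.40 (SE 0.12, adjusted p from limma 0.0325). The call was lost in 8 of 19 omissions, those of saline B and F, dexamethasone B and C, arsenite B and F, and both agents A and C, where the adjusted p from limma was 0.0504 to 0.0875.

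The paired chains of type IV collagen rose together. Col4a1 read 11.06, 11.27, 10.85, 10.54 and 11.28 after saline, 11.44, 10.73, 11.02 and 10.92 after arsenite, and 11.57, 11.25, 11.46, 11.62 and 11.48 after dexamethasone. After both agents it read 11.90, 11.22, 11.17, 12.14 and 11.67, and the sets overlapped between 11.17 and 11.44. The difference was 0.53 (SE 0.13, adjusted p from limma 0.00734), and its second probe set gave 0.52 (adjusted p from limma 0.0320). Col4a2 had 1 probe set and a difference of 0.52 (SE 0.16, 1.44-fold, adjusted p from limma 0.0465), with 10.12 to 11.26 in mice without dexamethasone and 10.72 to 11.65 in mice with it. This call was lost in 13 of 19 omissions, those of saline B, D and E, dexamethasone A, C, E and F, arsenite B, C and F, and both agents A, E and F, with adjusted p from limma of 0.0507 to 0.134. In the annotation the 2 genes lie head to head on chromosome 8. Col4a1 starts at 11312826 on the minus strand and Col4a2 at 11312805 on the plus strand. The starts differ by 21 bases, and the transcripts overlap there. The bases before each start lie in the partner's transcript and are not shown.

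Nid2 encodes nidogen 2, a linker of laminin and type IV collagen, and its probe set was dim. It read 4.12 to 4.51 in 4 saline mice and 5.74 in replicate E, 4.21 to 4.61 after arsenite, 4.76 to 5.41 after dexamethasone and 4.27 to 5.52 after both agents. The difference was 0.58 (SE 0.18) with an adjusted p from limma of 0.04998, at the edge of the threshold. The call was lost in 14 of 19 omissions, of saline B, C, D and F, dexamethasone A, E and F, each of the 4 arsenite mice, and both agents D, E and F, where the adjusted p from limma was 0.0645 to 0.117.

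No other member was called on its brightest probe set in the pooled comparison. Among the fibrillar collagens, which form the fibres of the interstitium, 6 of 6 lay below 0 in the pooled comparison, with a median of -0.33. The pooled values average 2 comparisons, dexamethasone against saline (median -0.45) and dexamethasone with arsenite against arsenite (median -0.31). All 6 lay below 0 in each. These 2 comparisons share no mice, but several of the 6 genes vary together between mice, so their signs are not independent. Of the probe sets over log2 5, 50.81% lay above 0 in the pooled comparison. The type I chains were -0.44 for Col1a1 (SE 0.29, adjusted p from limma 0.609) and -0.25 for Col1a2 (SE 0.14, adjusted p from limma 0.497), while a dimmer probe set of Col1a2 passed at -0.61 (adjusted p from limma 0.0398). Col5a1 was -0.32, Col5a2 -0.35 and Col14a1 -0.29. Of type VI, Col6a1 was 0.09 and Col6a2 -0.27, so that Col6a3 differed from its partner chains in size of change, a difference that was not tested.

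In the basement membrane the 7 collagens had a median of 0.17, with 4 above 0, and the laminins, nidogens and perlecan a median of 0.05, with 6 of 11 above 0. Col4a3, a chain of the alveolar and glomerular type IV network, was 0.17, and its partner Col4a4 -0.04. Col18a1, whose C-terminal fragment is endostatin, was -0.39 (adjusted p from limma 0.0715). Lamc1, the gamma chain shared by most laminins, was 0.40 (SE 0.15, adjusted p from limma 0.141), Lama4 of the vessel wall -0.13 and Nid1 0.28 (adjusted p from limma 0.100). The other laminin chains and Hspg2 lay between -0.05 and 0.08. Col8a1 was 0.17 and Col15a1 -0.36. Elastin (Eln) was 0.29 with a SE of 0.27, and Fbln1 0.09. Of the glycoproteins, fibronectin (Fn1) was -0.29, Sparc 0.02, decorin (Dcn) 0.41, lumican (Lum) -0.38 and biglycan (Bgn) 0.10.

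**Figure D3:**
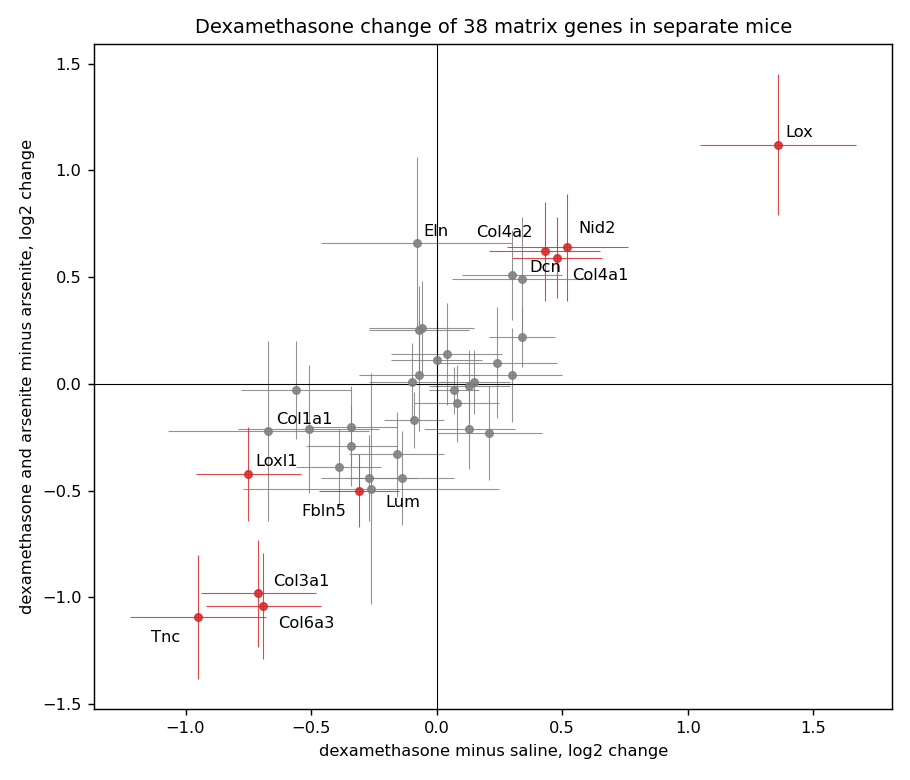
Log2 change of 38 matrix genes, dexamethasone minus saline (x axis) against dexamethasone with arsenite minus arsenite (y axis), with SE bars and red points for an adjusted p under 0.05 in the pooled comparison. The axes share no mice, and 27 of 38 genes have the same sign on both, with Lox at the upper right and Tnc, Col3a1 and Col6a3 at the lower left.

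Set side by side, the comparisons with and without arsenite gave the same sign for 27 of 38 members (71.05%), 11 higher and 16 lower in both. Over the probe sets above log2 5 the share was 61.51%. Pearson's r over genes was 0.83 for the members and 0.60 for those probe sets. Genes are not independent replicates, so both r are descriptions. Within each of the 5 array batches, the mice with dexamethasone were on average higher than those without for Lox (0.54 to 2.05), Col4a1 (0.38 to 0.98), Col4a2 (0.20 to 0.81) and Nid2 (0.08 to 1.30). They were lower in all 5 batches for Tnc (-1.21 to -0.65), Col3a1 (-1.48 to -0.25), Col6a3 (-1.53 to -0.29), Loxl1 (-1.01 to -0.26) and Fbln5 (-0.69 to -0.01). A batch held 1 to 3 mice with dexamethasone and 1 to 3 without, so some differences rest on 1 mouse on a side. Arsenite was not taken into account, and the mice are those that gave the calls, so this is a description.

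Taken alone, dexamethasone against saline called 1 member, Lox, where 0.422% of probe sets were called higher and 0.722% lower. The median of the members was -0.07. After Lox the largest rises were Nid2 (0.52) and Col4a1 (0.48), and the largest falls Tnc (-0.95), Loxl1 (-0.75) and Col3a1 (-0.71), none of them called by limma. Dexamethasone with arsenite against arsenite called 3 members, all lower, against 0.624% of probe sets higher and 0.901% lower. These were Col6a3 (-1.04, SE 0.25, 2.05-fold, adjusted p from limma 0.0144), Col3a1 (-0.98, SE 0.25, 1.97-fold, 0.0248) and Tnc (-1.09, SE 0.29, 0.0404). Lox (1.12), Eln (0.66) and Nid2 (0.64) had the largest rises there. All 3 calls were lost without arsenite replicate C (adjusted p from limma 0.0860 for Col3a1, 0.0873 for Col6a3 and 0.158 for Tnc), without replicate F (0.132, 0.0566 and 0.0916), or without replicate A of the mice given both agents (0.132, 0.0907 and 0.104). Col3a1 was also lost without arsenite A (0.0547), and Tnc without arsenite B (0.112) or both agents C (0.115) or E (0.0559).

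Dexamethasone with arsenite against saline called 1 member higher and 3 lower, where 0.657% of probe sets were higher and 0.602% lower. Lox rose by 1.64 (SE 0.31, 3.12-fold, adjusted p from limma 0.00198). Tnc fell by 1.23 (SE 0.27, 0.0102), Col3a1 by 1.01 (2.01-fold, 0.0129) and Col6a3 by 0.92 (1.89-fold, 0.0283). Lum read -1.21 without a call (adjusted p from limma 0.375). Without replicate A of the mice given both agents Col3a1 was -0.64 (0.0664) and Col6a3 -0.61 (0.150), and without saline replicate E Col3a1 was -0.89 (0.0716) and Tnc -1.08 (0.0603). Col6a3 was also lost without saline B (0.0770) or F (0.0893) or both agents C (0.0871). These differences use the same saline mice as dexamethasone against saline.

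Other genes of the matrix machinery were taken from 4 lists, given here for the pooled comparison by their counts. Of 18 measured genes that fold, cut or cross-link collagen, 0 rose and 3 fell, with a median of -0.11. These were Serpinh1, the collagen chaperone HSP47 (-0.60, adjusted p from limma 0.00680), Pcolce, an enhancer of procollagen cleavage (-0.49, 0.00311), and Crtap, part of the prolyl 3-hydroxylase complex (-0.43, 0.0423). Of 20 proteases and inhibitors, 2 rose and 3 fell, with a median of 0.02. Timp3, a matrix-bound metalloproteinase inhibitor, rose by 0.65 (0.000213) and Adamts5 by 0.50 (0.00549), while Mmp9, a gelatinase stored in neutrophils, fell by 1.84 (0.00120), Adamts1 by 0.51 and Adamts9 by 0.48.

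Of 10 measured elastic fibre genes outside the members, 0 rose and 2 fell, with a median of -0.15. Emilin2 fell by 1.84 (adjusted p from limma 1.15e-05) and Mfap5, a microfibril glycoprotein, by 0.50. Emilin2 was called in each separate dexamethasone comparison, at -1.76, -1.91 and -1.94. Of 21 genes of TGF-β signaling, the main inducer of matrix genes, 1 rose and 2 fell. Tgfbr3, the co-receptor betaglycan, rose by 0.66 (adjusted p from limma 7.03e-05), and Tgfbi, a secreted TGF-β target, fell by 0.75 (0.000193), as did the latent TGF-β binding protein Ltbp1 by 0.51. In the separate comparisons Timp3 rose by 0.71 and Tgfbr3 by 0.72 after both agents against saline, and by 0.75 and 0.78 after both agents against arsenite. Pcolce fell by 0.59 and 0.60 in these comparisons. Serpinh1 (-0.98), Mmp9 (-2.03) and Ltbp1 (-0.72) were called lower after both agents against arsenite, and Tgfbi (-0.82) after dexamethasone against saline. Adamts1 was called higher on LRD than on AIN-76A (0.54, adjusted p from limma 0.0245).

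Cell markers moved with dexamethasone as well. Of 8 fibroblast markers 2 fell, Col13a1 by 0.98 (adjusted p from limma 3.2e-05) and Tcf21 by 0.53, while 4 of 8 lay above 0 and the median was -0.07. The mean of the list was 10.29 to 10.85 in saline, 10.75 to 10.82 in arsenite, 10.48 to 10.63 in dexamethasone and 10.03 to 10.73 in mice given both agents. Of 6 neutrophil markers 3 fell, Csf3r (-1.83), S100a9 (-1.76) and S100a8 (-1.47), with 0 of 6 above 0 and a median of -1.16. The list mean was 7.99 to 10.43, 8.07 to 10.75, 7.89 to 8.42 and 7.97 to 10.90 in these groups. Of 5 alveolar type I markers 2 rose, Pdpn by 0.36 and Hopx by 0.21, with 3 of 5 above 0 and a median of 0.04. Calls were 0 for 9 endothelial markers. Replicate A of the mice given both agents had the lowest fibroblast level of the injected mice (10.03) and the highest neutrophil level (10.90). The part of these cells in the matrix changes was not tested. As a check of the drug, 5 known glucocorticoid-induced genes (Fkbp5, Tsc22d3, Zbtb16, Per1 and Sgk1) all lay above 0 in the pooled comparison, with a median of 0.30, but 0 were called (Fkbp5 at 0.81, adjusted p from limma 0.306), and in dexamethasone against saline their median was -0.06. In saline against uninjected mice 4 of these 5 lay above 0 with a median of 0.65 (Fkbp5 1.38, adjusted p from limma 0.999), so the saline mice read higher for them than control mice, without a call.

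Arsenite injection alone called 0 of 38 members against saline, and 0.0% of probe sets. At an unadjusted p under 0.05, 1 member passed (Col14a1, -0.59), against 6.24% of probe sets. The largest rises were Lox (0.52), Col4a4 (0.38) and Col4a3 (0.29), and the largest falls Lum (-0.71), Col14a1 and Col1a1 (-0.51). In dexamethasone-injected mice arsenite called 0 members, with 0.0% of probe sets called and 2.44% at an unadjusted p, where 0 members passed. Eln (0.59), Lox (0.28) and Lamb3 (0.16) were highest there, and Lum (-0.94), Dcn (-0.35) and Col3a1 (-0.30) lowest. The interaction of the 2 agents, the difference between the effects of dexamethasone with and without arsenite, called 0 members (0.0% of probe sets, 3.56% at an unadjusted p). Its largest values were 0.74 (SE 0.55) for Eln, 0.53 for Col14a1 and 0.46 for Col1a1, and -0.44 for Lama2, -0.34 for Col4a4 and -0.34 for Col6a3. For Lox the mice showed a wide spread after arsenite, with a SD of 0.92 against 0.28 after saline.

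Saline injection against uninjected control mice called 0 members, where 0.0% of probe sets were called higher and 0.00222% lower. Of the members 1 passed an unadjusted p of 0.05 (Col4a4, -0.37), against 4.09% of probe sets. Lum was 1.01, Col15a1 0.42 and Dcn 0.38, and on the other side Col6a3 was -0.35 and Col4a3 -0.25. Lum and Dcn were highest in saline replicate E, at 9.34 and 12.32, the mouse with thymus and fat RNA.

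As in food or water was compared with the control mice of the same diet. On AIN-76A with 10 ppb in food, 0 members and 0.0% of probe sets were called by limma. At an unadjusted p 0 members passed, against 2.28% of probe sets. The members lay above 0 in 31 of 38 cases, with a median of 0.07, against -0.02 and 43.95% above 0 for the probe sets over log2 5. Tnc (0.29), Lum (0.28) and Col1a1 (0.24) were highest and Col8a1 (-0.28), Lamb1 (-0.12) and Fn1 (-0.08) lowest. The SEs of the highest were 0.27 for Tnc, 0.51 for Lum and 0.40 for Col1a1.

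On AIN-76A with 10 ppb in drinking water, 32 of 38 members lay below 0 with a median of -0.31, while for bright probe sets the median was -0.10 and 34.00% lay above 0. Calls by limma were 0 for the members and 0.0% over all probe sets, with a smallest adjusted p of 0.172 among the members. At an unadjusted p 8 members passed, 2 higher and 6 lower, against 13.8% of probe sets. Tnc read 6.11, 6.07, 5.22 and 7.87 in mice A, C, D and E, against 5.22 to 5.43 in 5 control mice, a difference of 0.98 (SE 0.29). Lum was 0.86 and Col15a1, a collagen of the outer basement membrane, 0.68. Lox read 7.98, 8.38, 7.91 and 7.20, against 7.88 to 9.31 in control mice, a difference of -0.79. Col4a3 read 7.92, 9.12, 8.62 and 7.48, against 8.53 to 9.16, a difference of -0.57, and Col4a4 was also -0.57. The low values of Col4a3 stood in replicates A and E, the mice with RNA of fat, muscle or thymus. Replicate E had a fibroblast level of 9.81 and an endothelial level of 9.37, the lowest of all 52 mice. Without replicate C limma called 5 members (Col5a2, Col4a3, Col4a4 and Nid1 lower, Tnc higher), and without replicate D it called Tnc alone (adjusted p 0.0225). The shares of all probe sets called in these omissions are not given here, so the counts are no result about matrix genes in particular. Of 7 cartilage markers 7 lay above 0 in this comparison, with a median of 0.68 and 0 calls. The array of replicate E also had the highest 3' minus 5' signal (1.27). The parts of foreign tissue and of RNA quality in these values were not tested.

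With 100 ppb in drinking water on AIN-76A, 0 members and 0.0% of probe sets were called. At an unadjusted p 0 members passed, against 2.08% of probe sets. The members had a median of -0.12, with 9 of 38 above 0. Lox read 8.36, 10.68 and 8.56, against 7.88 to 9.31 in control mice, a difference of 0.54 that rests on replicate C and was -0.20 without it, a value computed after the data had been seen. Eln was 0.15 and Col4a2 0.11, and Col6a3 was -0.47, Col14a1 -0.45 and Col4a4 -0.36. The rank product listed 0 members in the comparisons of AIN-76A mice with As in food, 10 ppb in water and 100 ppb in water. Of 45037 probe sets it listed 18 higher and 55 lower with As in food, 14 and 183 with 10 ppb in water, and 10 and 4 with 100 ppb.

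On the LRD diet no As group had a called member. With 10 ppb in food, 0.0% of probe sets were called and 2.50% passed an unadjusted p, as did 1 member, Eln. Elastin read 8.48, 8.63, 8.05 and 9.21 in control mice and 8.39, 9.37, 10.14, 9.49 and 10.02 with As in food, a difference of 0.89 (SE 0.40, adjusted p from limma 1.0). Col1a1 was 0.56, Lox 0.46, Lum -0.71, Nid2 -0.37 and Dcn -0.22. With 10 ppb in water, 0.0% of probe sets were called and 3.45% passed an unadjusted p, against 0 members. Lox was 0.33, Col4a4 0.26 and Tnc 0.19, and Col15a1 was -0.56, Lum -0.50 and Dcn -0.28.

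With 100 ppb in water on LRD, 0.0% of probe sets were called and 3.24% passed an unadjusted p, against 2 members, Eln and Nid2. Eln read 10.72, 8.49 and 9.70, a difference of 1.04 (SE 0.45), and Nid2 was -0.61. These exposed mice share their control mice with the 10 ppb groups, and the LRD control mice had the lowest group mean of Eln of all 12 groups, 8.60. Loxl1 was 0.50, Tnc 0.43, Lum -0.80 and Lama3 -0.41.

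Between the diets, over all treatments given on both, 0 members were called, where 0.142% of probe sets were called higher on LRD and 0.0111% lower. At an unadjusted p 1 member passed (Fbln5, 0.21), against 4.25% of probe sets. Col5a1 was 0.20 and Col4a3 0.18, and Eln was -0.40, Tnc -0.31 and Lox -0.26. The effect of As was then compared between diets. For food, 0 members and 0.0% of probe sets were called, and 0 members and 2.04% passed an unadjusted p, with Eln at 0.71, Lox 0.45, Col4a1 0.36, Lum -0.99, Nid2 -0.34 and Dcn -0.31. For 10 ppb in water, 0 members and 0.0% of probe sets were called, and 5 members and 11.8% passed an unadjusted p, with Lox at 1.12, Col4a4 0.83, Col4a3 0.65, Lum -1.36, Col15a1 -1.24 and Tnc -0.80. For 100 ppb in water, 0 members and 0.0% of probe sets were called, and 0 members and 2.47% passed an unadjusted p, with Eln at 0.89, Loxl1 0.53, Tnc 0.42, Lum -0.63, Nid2 -0.39 and Dcn -0.24.

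**Figure D4:**
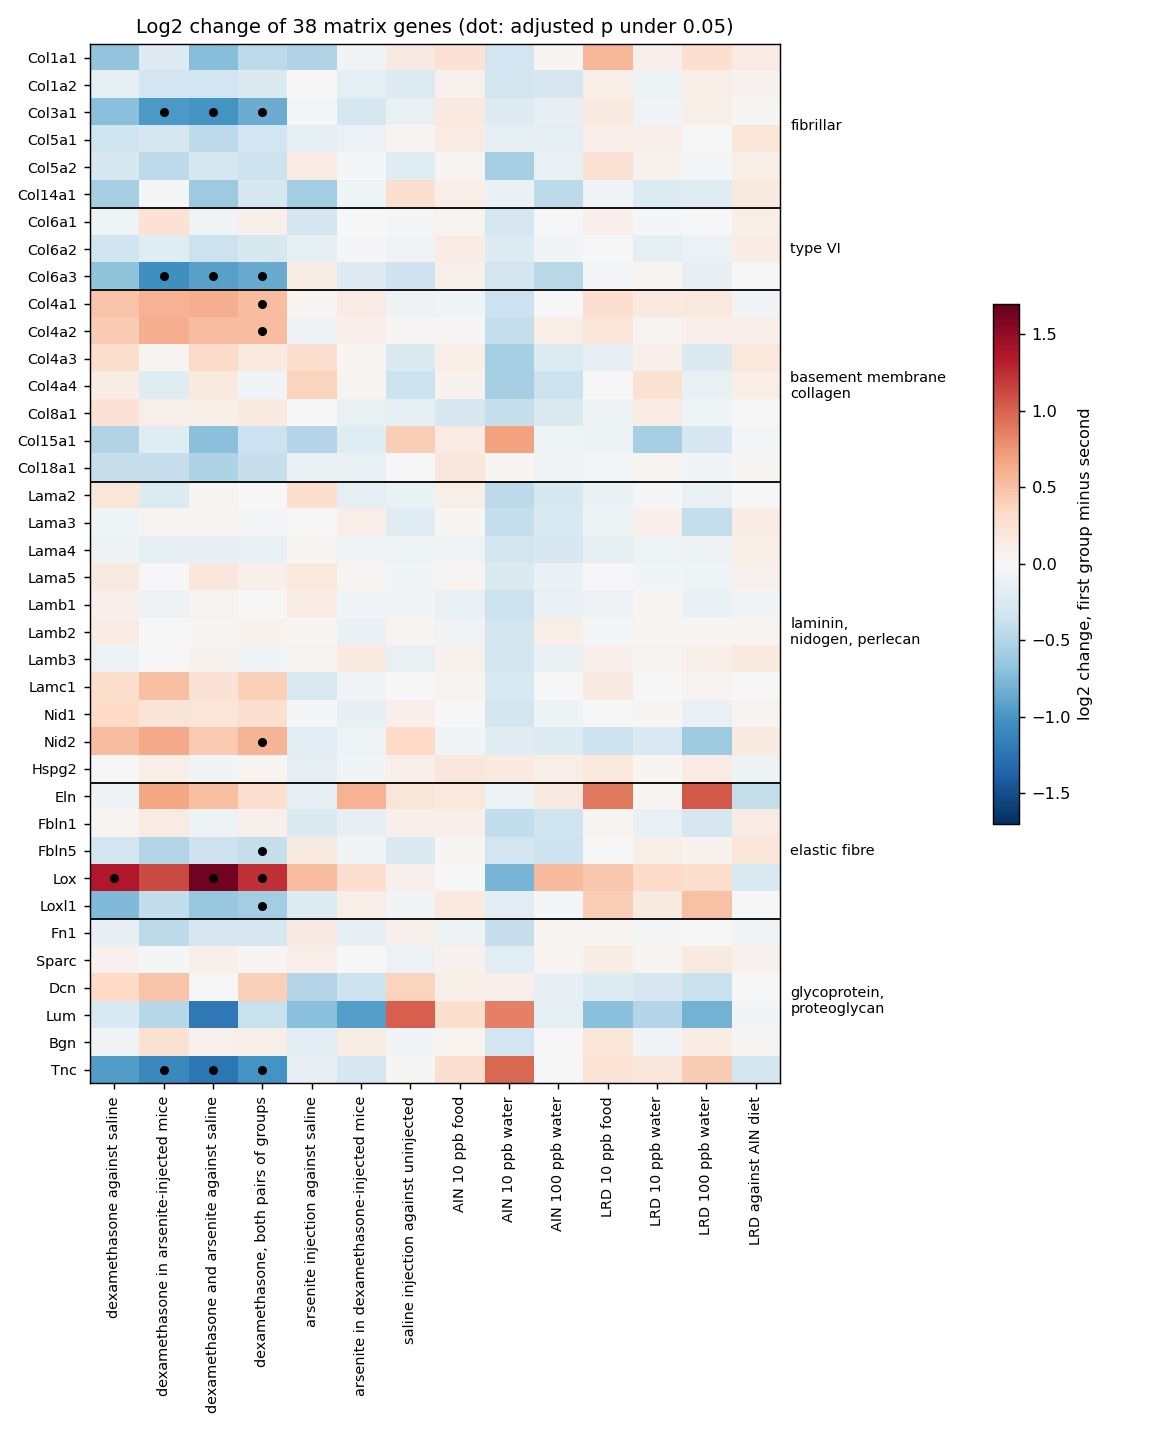
Log2 change of 38 matrix genes (rows, by role) in 14 comparisons (columns), coloured from lower to higher, with dots where the adjusted p was under 0.05. Dots stand only in columns that set mice with dexamethasone against mice without it.

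Across the 12 groups, the level of each fibrillar collagen gene, and of Col14a1, moved within 1.29 or less. Col1a1, an alpha chain of type I collagen, ran from 8.48 with both agents to 9.49 on LRD with As in food. Col1a2, the other chain, ran from 11.09 with both agents to 11.71 on AIN-76A with As in food. Col3a1 ran between the same groups from 10.81 to 12.10. Col5a1, of the type V collagen that nucleates fibrils, ran from 7.47 with both agents to 8.10 on LRD with As in food. Its partner Col5a2 ran from 8.52 on AIN-76A with 10 ppb in water to 9.20 on LRD with As in food. Col14a1, a fibril-associated collagen, ran from 6.72 at 100 ppb on AIN-76A to 7.44 after saline.

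Type VI chains had narrow ranges apart from Col6a3. Col6a1 ran from 9.56 after arsenite to 9.99 on LRD with As in food, Col6a2 from 9.39 with both agents to 9.99 in LRD control mice, and Col6a3 from 7.85 with both agents to 9.21 on AIN-76A with As in food. Over all 38 members, 20 had their lowest mean in the AIN-76A 10 ppb water group, and 7 without its replicate E, the mouse with thymus RNA. Of the basement membrane collagens 5 of 7 did, and 3 of 7 (Col4a2, Col4a3 and Col4a4) without that mouse (checked after the data had been seen). With all mice these were Col4a1 (10.72, highest with both agents at 11.62), Col4a2 (10.27, highest there at 11.21), Col4a3 (8.29, highest on LRD with 10 ppb in water at 9.02), Col4a4 (8.74, highest there at 9.43) and Col8a1 of vessel walls (5.64, highest after dexamethasone at 6.10). Col15a1 ran from 4.48 with both agents to 5.45 on AIN-76A with 10 ppb in water, and Col18a1 from 7.12 with both agents to 7.84 on AIN-76A with As in food.

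Laminins are trimers of an alpha, a beta and a gamma chain, and 8 of 8 chains measured had their lowest group mean on AIN-76A with 10 ppb in water. This rested largely on replicate E, the mouse with thymus RNA and the lowest fibroblast and endothelial levels. Without it, a check added after the data had been seen, 3 of 8 (Lamb1, Lamb2 and Lamb3) had their lowest mean there, and Lamb3 (8.21) read the same to 2 decimals as after dexamethasone. Of all 38 members 20 were lowest there with all mice. Probe sets over log2 5 also lay lower in this group than in control mice (median -0.10, 34.00% above 0). The share of all probe sets with their lowest mean there is not given here. Of the alpha chains, Lama2 of muscle and nerve sheaths ran from 7.13 to 7.74, Lama3 of epithelium from 7.63 to 8.20, Lama4 of vessels from 8.03 to 8.37 and Lama5 of the alveolar wall from 6.91 to 7.30. Beta chains were Lamb1 (8.79 to 9.23), Lamb2 (7.51 to 8.00) and Lamb3 (8.11 to 8.52), and the gamma chain Lamc1 ran from 8.04 to 8.60. Nid1 ran from 8.80 in that group to 9.53 after dexamethasone. Nid2 ran from 4.02 on LRD with 100 ppb in water to 5.14 after dexamethasone. Perlecan (Hspg2), a heparan sulfate proteoglycan, ran from 7.20 after arsenite to 7.47 on AIN-76A with As in food, less than its SD within groups of 0.30.

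The widest range of all members was that of Lox, from 7.86 on AIN-76A with 10 ppb in water to 10.38 with both agents, against a SD within groups of 0.52. Eln ran from 8.60 in LRD control mice to 10.14 with both agents (SD within groups 0.62), Fbln1, a calcium-binding glycoprotein, from 7.67 to 8.22, Fbln5 from 9.51 to 10.22 and Loxl1 from 9.35 to 10.36. Tnc had the next widest range, from 4.13 with both agents to 6.32 on AIN-76A with 10 ppb in water. Fibronectin (Fn1) ran from 9.44 to 10.07, Sparc, a collagen-binding protein, from 12.44 to 12.75, and biglycan (Bgn) from 11.91 to 12.34. Decorin (Dcn), which coats collagen fibrils, ran from 10.50 to 11.38. Lumican (Lum), of the same proteoglycan family, ran from 6.64 with both agents to 7.85 after saline and spread most between mice, with a SD within groups of 0.85.

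The chosen pairs of collagen chains of 1 protein varied together between mice. Deviations from group means over 52 mice gave r = 0.91 (Spearman's rho 0.90) for Col4a1 and Col4a2, 0.86 (0.82) for Col6a1 and Col6a2, 0.79 (0.72) for Col4a3 and Col4a4 and 0.76 (0.72) for Col1a1 and Col1a2. The fibril partners Col3a1 and Col5a2 gave 0.75 (0.74), and the neighbouring genes Lum and Dcn 0.78 (0.77). For each of these 6 pairs the permutation p was 1e-05 for r and for rho, the smallest that 100000 resamples can give, and 1e-05 after adjustment over 7 pairs. Lama4 and Lamc1, chains of 1 laminin of vessel walls, gave 0.07 (-0.13), with permutation p of 0.602 and 0.342, the same after adjustment. The r were taken again without the 2 mice farthest from the median of the first gene, with deviations left as computed over all mice. They were 0.89, 0.85, 0.73, 0.69, 0.73 and 0.74 in the order given, and -0.18 for Lama4 and Lamc1. With batch means removed they were 0.93, 0.80, 0.83, 0.84, 0.74 and 0.74, and 0.33. All 703 pairs of members had a median r of 0.32, with quartiles of 0.05 and 0.53, and the permutation p tests r against 0, not against that median. It treats deviations as exchangeable over all mice, although they sum to 0 within each group, so it tends to be too small. A partner chain was not always the nearest member. Col6a1 was nearest to Bgn (0.87) and Col1a2 to Col3a1 (0.82), while Col4a1 and Col4a2, and Col4a3 and Col4a4, were nearest to each other. Col6a3, which was not among the chosen pairs, was nearest to Col1a2 (0.77), ahead of both its partner chains.

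Col1a1 was most like Loxl1 (r = 0.90 over the same 52 mice, given as a description), while Loxl1 was called under dexamethasone and Col1a1, with a SD within groups of 0.66, was not. The difference between their changes was not tested. Lox was most like Col4a1 (0.52), the collagen that rose with it, then Fn1 (0.40) and Col4a3 (0.40). Tnc was unlike every member, with its highest r at 0.26 for Col5a1.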

How the data were processed

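Lung RNA was hybridised to Affymetrix mouse whole-genome arrays, 1 per mouse. The deposited values are log2 expression values that the authors made by robust multiarray averaging (RMA, per the labels, no version given); which arrays were normalized together is not given in the sources used here. The table held 45101 probe sets, from which the 64 control probe sets were dropped, and 34945 of the rest carry 1 gene symbol. Array medians ran from 4.245 to 4.369, and with 3 to 5 mice per group the number of arrays limits the precision.

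Groups came from sample titles. One linear model over 52 arrays and 12 groups was fitted in limma 3.58.1 (R 4.3.3) with empirical Bayes, two-sided, and Benjamini-Hochberg over all probe sets at 0.05. The study's rank product, written anew, was an alternative for the AIN-76A comparisons, with 100 random orderings. It listed probe sets by an estimated share of false positives, while the study gives a p under 0.05. Its lists are therefore not on the study's own measure. The model was tested on simulated data. Batch was taken from the raw array file's name, 5 batches. Tables, permutation tests and figures used Python 3.11.15, numpy 2.4.6, pandas 2.3.3, scipy 1.17.1 and matplotlib 3.10.9. Promoters are those of RefSeq.

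The members, lists and alternatives were chosen with earlier results of these data known. Named are all members that passed, 15 fixed members, where fewer than 6 passed the 3 largest rises and falls, and up to 4 passing genes of each context list. Genes of the lists without a probe set of their own symbol (3 of collagen processing, 2 of the elastic fibre, 1 of TGF-β) were not analysed here. Alternatives were all 55 arrays, omission of AIN-76A 10 ppb water replicates A and E, batch or replicate letter as a block, a filter at log2 5, median centring, quantile normalization, only the groups compared, array weights, other rules for probe sets and omission of each mouse.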

Additional observations from a re-analysis of the deposited data

Results flagged for a closer look

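Each group of 4 to 10 mice was searched for a mouse whose gap to its nearest neighbour took an unusually large part of the range of the group (Dixon's criterion), for the member average and for the called genes. Chance gives about 1 in 20, and 8 were found in the 100 groups searched. For the average of the 38 genes, AIN-76A control replicate D was low at 8.56 and LRD 10 ppb food replicate F high at 9.05. Among single genes, Col3a1 was low at 9.35 in replicate A of the mice given dexamethasone and arsenite, the mouse with the lowest fibroblast marker level among the injected mice. Nid2 was high at 5.74 in saline replicate E, which carried thymus and fat RNA. Loxl1 was low at 9.07 in AIN-76A 10 ppb water replicate E, which carried thymus RNA. Lox was high at 9.23 in saline replicate C, Col4a1 at 10.87 in LRD control replicate F and Col4a2 at 11.03 in AIN-76A 10 ppb food replicate B. The part of other tissues in these values was not tested. No test of a difference between the effects of 2 settings passed for a member.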

How the results depend on the processing

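Dexamethasone against saline called 1 member, 0 with all 55 arrays, 3 without AIN-76A 10 ppb water replicates A and E, 2 with batch as a block (median 0.09), 3 among probe sets over log2 5, 7 with array weights, 2 with the mean of a gene's probe sets, 2 with any probe set, and 0 to 2 without 1 mouse (0 without saline F or dexamethasone E, 2 without saline D or dexamethasone C). The pooled comparison called 9, 2 with all 55 arrays (median 0.23) and 6 to 9 without 1 mouse. Both agents against saline called 4, 0 with all 55 arrays, 7 with batch as a block, 1 with only the groups compared and 2 to 5 without 1 mouse (2 without saline E or both agents A). Both agents against arsenite called 3, 0 with all 55 arrays (median 0.59), 6 with batch as a block, 1 with only the groups compared, 5 with any probe set and 0 to 4 without 1 mouse. AIN-76A 10 ppb water called 0, and 0 to 5 without 1 mouse (5 without replicate C, 1 without D), its median running from -0.40 to -0.08. The diet difference at 10 ppb in water called 0, and 0 to 1 without 1 mouse (1, Col4a4, without AIN-76A replicate C), with a median of 0.29, and 0.04 without replicates A and E. With all 55 arrays the median was -0.80 for arsenite against saline (0.10 with batch as a block), -0.39 for 100 ppb on AIN-76A (-0.14 to 0.00 without 1 mouse, 0.00 without replicate C), -0.20 for 10 ppb water on LRD, 0.72 for the interaction and 0.39 for the diet difference at 100 ppb. Fbln5 in the pooled comparison turned to 0.14 and Col3a1 after both agents against arsenite to 0.44, both with all 55 arrays, which add the 3 that stood apart. The cause of the other shifts was not tested. For none of these settings is the share of all probe sets called given here. The counts therefore show how the calls of members vary, not whether members differ from other genes. The replicate letters did not pair the mice (median correlation of deviations 0.0102 for 206 pairs of the same letter, -0.00731 for 1030 others, 0.194 for 239 pairs of the same batch), and the replicate block gave 1, 7, 3 and 3 calls in these dexamethasone comparisons, in the order given, and 0 in the others. Levels near log2 5 or below lie close to background, which limits Nid2, Tnc and Col15a1, and 3 to 5 mice per group limit what can be detected elsewhere.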

Other observations

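Lox was also set against the mean of 5 known glucocorticoid-induced genes (Fkbp5, Tsc22d3, Zbtb16, Per1 and Sgk1) in the 42 mice that received no dexamethasone, by deviations from group means, after the data had been seen. Pearson's r was 0.52 (permutation p 0.00063, 0.0239 after Benjamini-Hochberg adjustment over the 38 members) and Spearman's rho 0.44 (permutation p 0.00408, adjusted 0.155). The permutation treated deviations as exchangeable over all mice, although they sum to 0 within each group, so these p tend to be too small. Without the 2 mice farthest from the median of that mean, AIN-76A 100 ppb water replicates A and C, r was 0.32 and rho 0.36. The size of the relation therefore rests in part on those mice. Deviations were not computed again, so replicate D, left alone in its group, kept a Lox deviation of -0.641 from a mean with the omitted mice. The omission thus does not remove their whole influence. With batch means removed r was 0.52. The next highest member was Lamb1 at 0.34, and the lowest Lum at -0.33.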
